A study of Mus musculus with 6 samples.

Results

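Acta2, Rgs5, Des, Reln, Dcn, Lum, Pdgfrb and Pdgfra are 8 genes commonly used to mark hepatic stellate cells, pericytes and fibroblasts, and their transcripts were followed in the liver of mice lacking ACBP, the acyl-CoA binding protein encoded by Dbi. They are 8 of the 18193 gene symbols on the array. All probe sets that the platform annotation assigns to one of the 8 were taken, 19 of 45101, and the collagens were left out. The knockout group was 3 pools of liver RNA from ACBP-/- mice and the comparison group 3 pools from wild-type (+/+) mice, all on the C57BL/6JBomTac strain, 21 days old and in the fed state. Each pool combined equal amounts of RNA from 5 mice, so 15 mice stood behind each genotype and the spread between pools is a spread of pool means. Each pool was read on 1 Affymetrix array. Every cell of these mice carried the genotype, and whole liver was used, so no value belongs to an isolated cell type. The comparison asked how these markers differ in liver when ACBP is absent.

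Stellate cells are the pericytes of the liver sinusoid. They lie between hepatocytes and the sinusoidal endothelium, store vitamin A as retinyl esters and, when liver is injured, can turn into contractile, matrix-producing myofibroblasts marked by smooth muscle actin. Portal fibroblasts and vascular smooth muscle share part of this marker set, and signals through the platelet-derived growth factor receptors drive the growth and migration of all of these cells.

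The data separated the markers into those that fell, one that rose and those for which no difference was called. Acta2, the smooth muscle actin of contractile mesenchymal cells, fell to 0.756 times its wild-type signal at its bright probe set, and Reln, the secreted glycoprotein reelin, fell to 0.846 times. Rgs5, a pericyte regulator of G protein signalling, rose to 1.27 and 1.44 times at 2 of its 4 probe sets. Lum, Dcn, Pdgfra and Pdgfrb were not called, and Des was called Absent on all 6 arrays. In all, 4 of 13 tested probe sets were called at an adjusted p below 0.05 (limma, adjusted over all tested probe sets), against 5.68% of all 22482 probe sets tested. Of these 4, 2 were lower and 2 were higher, both of Rgs5, against 3.0% and 2.68% of all. The signals of the genotypes did not overlap for 8 of the 13, against 22.4% of all tested probe sets: 4 were lower in every knockout pool, against 10.8%, and 4 were higher, against 11.6%. The 4 higher ones are the probe sets of Rgs5, which share a target and are not independent readings. With 1 probe set per gene, 7 of the 8 genes could be tested, and 2 were called, 1 lower and 1 higher, against 7.09% of all 10908 tested genes. Their median log2 fold change was 0.05, beside 0.01 over all tested genes.

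Dbi checked the labels. The log2 signal at its brightest probe set was 5.37, 5.32 and 5.15 in knockout pools 1 to 3, against 15.94, 15.74 and 15.77 in wild-type pools 1 to 3. Between 48.4% and 51.1% of probe sets were called Present per array, a call that marks a signal above the mismatch background. Of the 19 marker probe sets, 13 or 14 were Present in each knockout pool and 12 or 13 in each wild-type pool. The 3′ to 5′ ratio of the Actb control was 2.34 to 2.35 in knockout pools and 2.18 to 2.19 in wild-type pools, and that of Gapdh 0.91 in knockout pools and 0.87 to 0.92 in wild-type pools. Knockout pool 1 stood apart in a Y-linked gene: Eif2s3y read 1.16 there and was called Absent, while knockout pools 2 and 3 both read 8.55 and the wild-type pools 6.97 to 8.69. The other pools differed too. The X-linked Xist read 11.14, 10.03 and 9.04 in knockout pools 1 to 3. It read 11.04, 9.14 and 11.01 in wild-type pools 1 to 3. The values of the called markers without knockout pool 1 are given beside them, but leaving it out does not even out these differences. The labels do not give the sex of the pooled mice, and its part was not tested.

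Acta2 and its contractile partner Myl9, the regulatory light chain of smooth muscle myosin, both fell, and the 250 bases before their annotated starts are shown because both hold a known kind of element for smooth muscle genes. That element is the CArG box, the binding site of serum response factor, which reads CC, then 6 letters of A or T, then GG. Capitals mark each match with at most 1 inner letter other than A or T. The search was made on both strands, for which this pattern is the same. The sequences are RefSeq's in GRCm38.p6, at chr19:34255374-34255623 on the minus strand for Acta2 and chr2:156775214-156775463 on the plus strand for Myl9.
Acta2: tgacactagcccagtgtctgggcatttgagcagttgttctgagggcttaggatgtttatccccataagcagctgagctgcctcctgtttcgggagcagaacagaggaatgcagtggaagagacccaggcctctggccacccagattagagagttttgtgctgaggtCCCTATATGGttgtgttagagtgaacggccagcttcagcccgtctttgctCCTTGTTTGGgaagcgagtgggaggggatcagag
Myl9: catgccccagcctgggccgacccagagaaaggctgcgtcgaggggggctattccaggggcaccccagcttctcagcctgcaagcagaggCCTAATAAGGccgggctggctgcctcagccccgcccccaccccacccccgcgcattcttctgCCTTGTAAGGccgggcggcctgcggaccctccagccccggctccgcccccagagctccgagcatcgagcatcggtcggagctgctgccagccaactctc
The matches begin 84 and 34 bases before the start in Acta2 and 161 and 99 bases before it in Myl9. Of all 32851 promoter windows of this length, 8.59% held at least 1 such match and 0.67% held 2 or more, while 1.47% held a match with A or T at all 6 inner letters, as 1 of those in Myl9 does. The windows of Acta2 and Myl9 were printed because they hold matches. These shares therefore only describe how common the pattern is and test nothing. Windows of the other smooth muscle genes, most of them not called, were not examined singly. The windows of Rgs5, Des, Reln and Pdgfra held none, and those of Dcn, Lum, Pdgfrb and Tagln were not used here. A match describes the letters only, and the arrays did not measure binding or the start site used.

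Acta2 had 3 probe sets, of which 1 was Present on all arrays. That probe set, 1416454_s_at, read 7.95, 7.95 and 7.73 in knockout pools, against 8.35, 8.25 and 8.24 in wild-type pools. Every knockout pool was below every wild-type pool. The mean was 7.88 ± 0.13 in knockout and 8.28 ± 0.06 in wild type (SD, n = 3 pools each), and it fell by 0.40 (SE 0.10, 95% interval -0.61 to -0.20, limma adjusted p = 0.0205). In a bulk sample, fewer cells of a type and less RNA per cell cannot be told apart. The detection p-values of this probe set, in the authors' deposited table, were 0.0239 to 0.0461 in knockout pools and 0.0239 to 0.0461 in wild-type pools. The suffix _s_at means that the probes can bind more than 1 transcript, and which ones they bound was not tested. Of 5 other actin genes 2 were tested. The bright cytoplasmic actin Actb gave a log2 fold change of -0.04 (adjusted p = 0.791) and Actg1 one of -0.10 (adjusted p = 0.672). The dim probe set 1456658_at read 5.02, 4.85 and 5.18 in knockout pools, against 5.20, 5.32 and 5.02 in wild-type pools. It was Present in all 3 knockout pools and in 0 wild-type pools, so it entered the test through its knockout calls, although its mean was lower in knockout (log2 fold change -0.16, SE 0.17, adjusted p = 0.692). The third probe set, 1444105_at, was Absent on all arrays. Where 1 probe set stood for each gene and _s_at probe sets came last, the dim one stood for Acta2 and only Reln counted as lower. With _s_at probe sets ranked like the others, a choice made after seeing the data, 2 genes were lower. Without knockout pool 1 the bright probe set of Acta2 gave -0.44 (adjusted p = 0.0203). Leaving out a wild-type pool ended the call, with adjusted p = 0.129 without pool 1, 0.0649 without pool 2 and 0.0630 without pool 3, and so did centring arrays on their medians (0.0750). The part of the Actb 3′ to 5′ ratio, which also separated the genotypes, was not tested.

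Rgs5 encodes a GTPase-activating protein of pericytes and vascular smooth muscle that shortens signals from G protein-coupled receptors. Its brightest probe set, 1417466_at, read 9.90, 9.81 and 9.97 in knockout pools, against 9.53, 9.48 and 9.63 in wild-type pools. All knockout pools were above all wild-type pools. It rose by 0.35 (SE 0.08, adjusted p = 0.0126, n = 3 pools each), from limma as for every adjusted p here. The probe set 1420941_at read 6.91, 7.0 and 6.96 in knockout pools, against 6.44, 6.39 and 6.45 in wild-type pools. It rose by 0.53 (SE 0.11, 95% interval 0.30 to 0.76, adjusted p = 0.00589), and pools within a genotype differed by far less than the genotypes. The other 2, which can bind more than 1 transcript, also had every knockout pool above every wild-type pool but did not pass. Their log2 fold changes were 0.30 (SE 0.11, adjusted p = 0.150) at 1420942_s_at and 0.23 (SE 0.13, adjusted p = 0.390) at 1420940_x_at. The authors' deposited table gives absolute folds of 1.27 for 1417466_at and 1.44 for 1420941_at, with corrected p-values of 0.254 and 0.0933. Without knockout pool 1 both calls stood, at 0.34 (adjusted p = 0.0293) and 0.56 (adjusted p = 0.00926). The call of 1417466_at was lost without wild-type pool 1 (adjusted p = 0.0693) or pool 2 (0.0776), and that of 1420941_at was kept without each pool in turn.

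**Figure D1:**
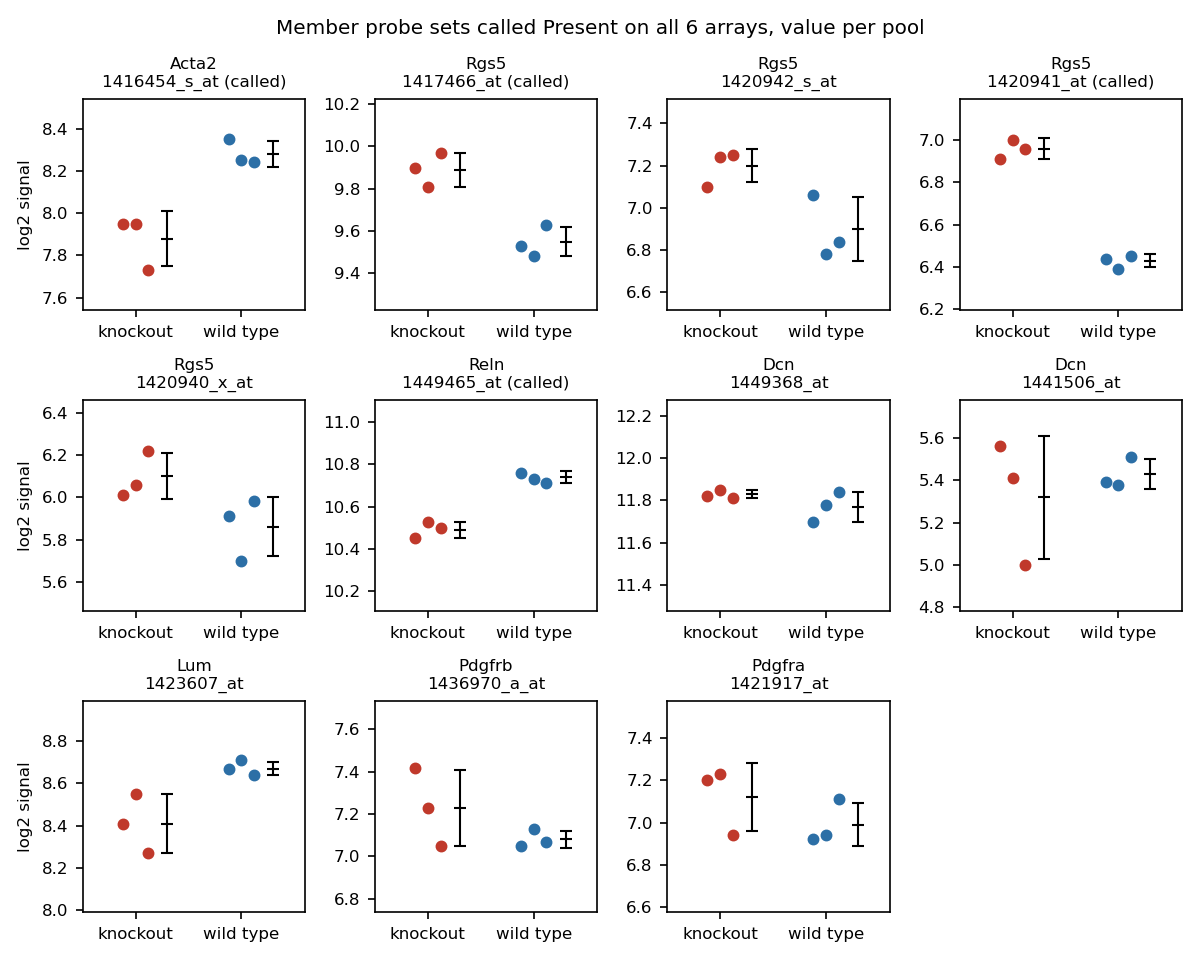
Log2 signal (vertical axis, 1 log2 unit in every panel) of the 11 marker probe sets called Present on all 6 arrays, with knockout pools in red and wild-type pools in blue; black bars are mean ± SD of 3 pools. Acta2, Reln and Lum lie lower in every knockout pool, all 4 Rgs5 probe sets lie higher, and Dcn, Pdgfrb and Pdgfra overlap.

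Des encodes desmin, the muscle intermediate filament used as the classical stellate cell marker in rodents, and it was not detected. The probe set 1426731_at read 5.30, 4.99 and 5.14 in knockout pools, against 5.25, 5.08 and 5.25 in wild-type pools, and was Absent on all 6 arrays. The second, 1426732_at, ran from 0.87 to 2.62 in knockout pools and from 1.90 to 3.44 in wild-type pools, also Absent throughout. No fold is given for Des, since both groups were below the detection call. Vim, the intermediate filament of most mesenchymal cells, was Present throughout and had a log2 fold change of -0.19 (SE 0.10, adjusted p = 0.368).

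Reln encodes reelin, an extracellular glycoprotein known from neuronal migration that quiescent stellate cells also make. The bright probe set 1449465_at read 10.45, 10.53 and 10.50 in knockout pools, against 10.76, 10.73 and 10.71 in wild-type pools. The groups did not overlap, and pools within a genotype differed by less than 0.1. The mean fell by 0.24 (SE 0.06, 95% interval -0.38 to -0.11, adjusted p = 0.0325). At 1458020_at the pools read 5.08, 5.30 and 5.28 in knockout, against 5.93, 5.50 and 5.45 in wild type, and 2 of 3 knockout pools were Present. This dimmer probe set gave -0.40 (SE 0.17, adjusted p = 0.199), with the groups again apart. The small fall was close to the threshold. Its call was lost without knockout pool 1 (-0.22, adjusted p = 0.0969) and without any other single pool except knockout pool 3 (adjusted p 0.0837 to 0.169). It was also lost with the pool number as a block (adjusted p = 0.0546) and without a detection filter (0.0580). With median centring (-0.18, adjusted p = 0.173) and without the intensity trend (0.197) it did not pass either, so it held in 3 of 7 other settings. Vldlr, a reelin receptor that also takes up triglyceride-rich lipoproteins, was 1 of 2 tested genes of the reelin receptor and adaptor list and rose by 0.93 (SE 0.22, adjusted p = 0.0155). It read 6.85, 6.20 and 5.65 in knockout pools, against 5.24, 5.28 and 5.40 in wild-type pools. Its highest value was in knockout pool 1, without which the log2 fold change was 0.62 (adjusted p = 0.0569), and the call was also lost without wild-type pool 1 (0.0547). Without the detection filter (adjusted p = 0.0501) and without the intensity trend (0.162) Vldlr did not pass. The kinase gene Fyn, the other tested gene, gave -0.25 (adjusted p = 0.279). Over all tested genes 3.30% were called higher.

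Dcn and Lum encode decorin and lumican, small leucine-rich proteoglycans that bind collagen fibrils. The bright Dcn probe set 1449368_at read 11.82, 11.85 and 11.81 in knockout pools, against 11.70, 11.78 and 11.84 in wild-type pools, and the groups overlapped. Its log2 fold change was 0.05 (SE 0.05, adjusted p = 0.690), with a 95% interval from -0.06 to 0.17. The dim 1441506_at read 5.56, 5.41 and 5.00 in knockout pools and 5.38 to 5.51 in wild-type pools, and gave -0.10 (SE 0.17, adjusted p = 0.818). Lum, at its only probe set 1423607_at, read 8.41, 8.55 and 8.27 in knockout pools, against 8.67, 8.71 and 8.64 in wild-type pools. Every knockout pool was below every wild-type pool, but the log2 fold change of -0.26 (SE 0.09, adjusted p = 0.129) did not pass. It passed after quantile normalization, with -0.30 (adjusted p = 0.0237). Of the other small leucine-rich proteoglycans, 5 of 10 were tested and 0 were called by limma. Of these, 2 had an unadjusted p below 0.05, against 20% of all tested genes. All 5 had negative log2 fold changes, against 46.5% of all tested genes, with a median of -0.17. In 2 of the 5 every knockout pool was below every wild-type pool, against 12.6% of all tested genes. Biglycan (Bgn) gave -0.17 (SE 0.07, adjusted p = 0.226), with every knockout pool below every wild-type pool.

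Pdgfra and Pdgfrb encode the receptor tyrosine kinases for platelet-derived growth factors, which drive the growth of fibroblasts and activated stellate cells. Pdgfra at 1421917_at read 7.20, 7.23 and 6.94 in knockout pools, against 6.92, 6.94 and 7.11 in wild-type pools. The groups overlapped, and the log2 fold change was 0.13 (SE 0.12, 95% interval -0.11 to 0.38, adjusted p = 0.611). Pdgfra had 2 further probe sets that were Present on 1 or 2 arrays and were not tested. Pdgfrb at 1436970_a_at read 7.42, 7.23 and 7.05 in knockout pools, against 7.05, 7.13 and 7.07 in wild-type pools. Knockout pool 1 was the highest and the groups overlapped, and the log2 fold change was 0.15 (SE 0.11, 95% interval -0.09 to 0.39, adjusted p = 0.540). Its second probe set was Absent on all arrays. All 4 ligand genes were tested by limma and 0 were called, also at an unadjusted p below 0.05, with a median of -0.09 and the brightest, Pdgfc, at -0.25 (adjusted p = 0.347).

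**Figure D2:**
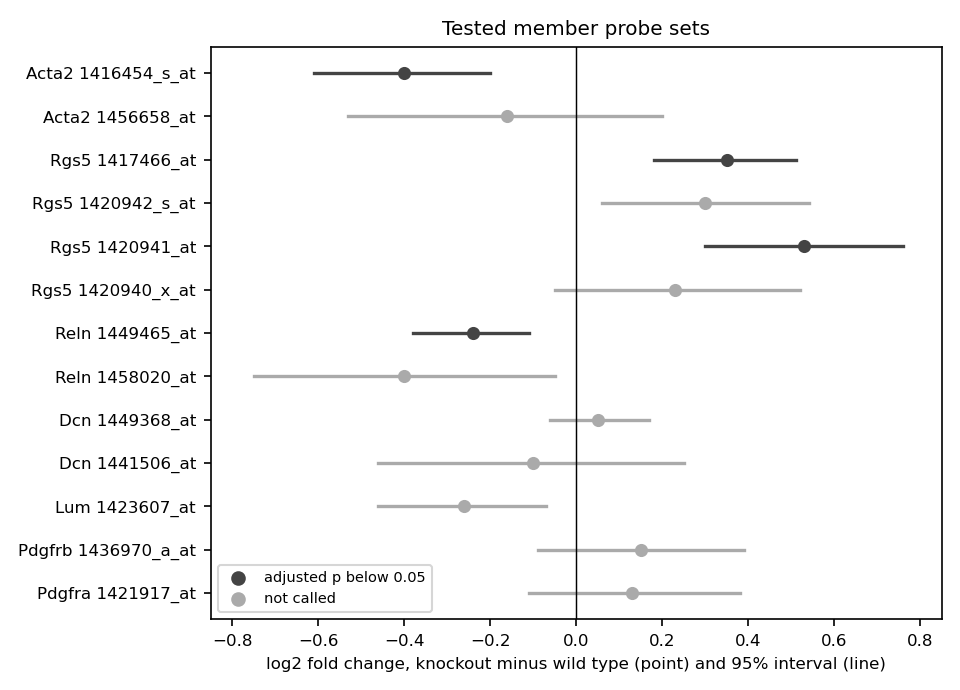
Log2 fold change of the 13 tested marker probe sets, knockout minus wild type (horizontal axis), with the 95% interval of the limma fit; dark marks passed an adjusted p of 0.05 and grey marks did not. The bright probe sets of Acta2 and Reln lie at -0.40 and -0.24, those of Rgs5 at 0.35 and 0.53, and the interval of Dcn at 1449368_at spans -0.06 to 0.17.

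The same signals were also set against each other within each array, where the scaling between arrays drops out. Acta2 and Rgs5 were paired because they had been called in opposite directions, so their difference only combines those calls and is a description. The log2 difference between Acta2 and Rgs5 at their brightest probe sets was -1.95, -1.86 and -2.24 in knockout pools, against -1.18, -1.23 and -1.39 in wild-type pools. It was thus lower by 0.75 in knockout, with the groups apart. Set against Dcn on the same array, Acta2 changed by -0.46, Lum by -0.32, Reln by -0.29 and Rgs5 by 0.30, each with the groups apart. Pdgfra and Pdgfrb changed by 0.08 and 0.10 against Dcn, with overlapping groups and an exact two-sided permutation p of 0.400 for both. For the first 5 of these 7 differences an exact permutation test (two-sided) gave p = 0.1, which is the lowest that 6 pools can give, so none could pass 0.05 or an adjustment over the 7. Dcn, Acta2 and Rgs5 enter more than 1 of the 7 differences, and all 7 come from the same arrays, so the differences are not independent. These ratios show unequal change between markers and not which of them stayed constant.

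Tagln and Myl9, partners of Acta2 in the contractile apparatus, fell, and most genes of their list were not called. Of 16 smooth muscle and pericyte genes, 12 were tested, 2 fell and 0 rose, against 3.79% of all tested genes called lower and 3.30% called higher. Tagln, the actin-binding protein transgelin, read 7.03, 7.32 and 7.04 in knockout pools, against 7.60, 7.66 and 7.57 in wild-type pools, and fell by 0.48 (SE 0.11, adjusted p = 0.0133). Myl9, whose promoter window is printed above beside that of Acta2, read 6.81, 6.75 and 6.43 in knockout pools, against 7.33, 7.08 and 7.17 in wild-type pools, and fell by 0.53 (SE 0.12, adjusted p = 0.0152). Both calls stood without knockout pool 1, at adjusted p of 0.0406 for Tagln and 0.00908 for Myl9. Both were lost without wild-type pool 1, at adjusted p of 0.0624 for Tagln and 0.111 for Myl9, and that of Tagln also without wild-type pool 2 (0.0644). The intensity trend mattered too, since without it Tagln (adjusted p = 0.0785) and Myl9 (0.102) did not pass. The other 10 did not pass, among them Mylk, a myosin light chain kinase, at 0.01 (adjusted p = 0.967). The median of the list was -0.18, with 8 of the 12 log2 fold changes negative, against 46.5% of all tested genes. In 2 of the 12 every knockout pool was below every wild-type pool, against 12.6% of all tested genes. In 2 every knockout pool was above, against 12.9%.

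Stellate cell genes beyond the 8 showed no call. Of 17 listed, 15 were tested by limma and 0 passed at an adjusted p below 0.05, while 5 had an unadjusted p below 0.05, against 20% of all tested genes. Of the 15 log2 fold changes 10 were negative, against 46.5% over all tested genes, and the median was -0.12. In 3 of the 15 every knockout pool was below every wild-type pool, against 12.6% of all tested genes, and in 1 every knockout pool was above, against 12.9%. The 3 lower ones, named after their values were seen, were Hgf (-0.44, adjusted p = 0.104), Tcf21 (-0.28, 0.117) and Lrat (-0.27, 0.174). The 1 higher was Lhx2 (0.18, adjusted p = 0.556). Ecm1, a secreted matrix protein of quiescent stellate cells and the brightest of the 15, gave 0.17 (SE 0.08, adjusted p = 0.268). Of 15 portal fibroblast and fibroblast genes 7 were tested and 1 fell: Eln, which encodes elastin, read 7.17, 7.05 and 6.68 in knockout pools, against 7.43, 7.42 and 7.36 in wild-type pools (log2 fold change -0.43, SE 0.12, adjusted p = 0.0491). Postn, the matricellular protein periostin, gave 0.04 (adjusted p = 0.881). Of 28 other matrix genes without collagens 20 were tested and Nid2, a nidogen of basement membranes, alone was called lower. Over all tested genes 3.79% were called lower, which also stands beside the counts for Eln above and Smad7 below. Nid2 read 6.16, 6.04 and 5.99 in knockout pools, against 6.50, 6.47 and 6.52 in wild-type pools (log2 fold change -0.43, SE 0.12, adjusted p = 0.0387). In 6 of the 20 every knockout pool was below every wild-type pool, against 12.6% of all tested genes. In 0 every knockout pool was above, against 12.9%. Their summed linear signal was 12720 to 13190 in knockout pools, against 13570 to 14130 in wild-type pools. Fibronectin (Fn1), the brightest of them, gave -0.08 (adjusted p = 0.393). The calls of Eln and Nid2 were each lost without knockout pool 2 and without each wild-type pool, with adjusted p from 0.0831 to 0.180, and also without the intensity trend (0.179 for Eln and 0.0580 for Nid2). Both stood without knockout pool 1, at 0.0158 for Eln and 0.0359 for Nid2. Of 14 genes of the TGF beta pathway, which drives stellate cell activation, 10 were tested and Smad7, its feedback inhibitor, alone fell, by 0.69 (SE 0.14, adjusted p = 0.00566). It read 6.12, 5.94 and 5.82 in knockout pools, against 6.39, 6.72 and 6.85 in wild-type pools, and was called without each pool in turn, though not without the intensity trend (adjusted p = 0.0700). Smad4, the common partner of the receptor-activated Smads, was at 0.10 (adjusted p = 0.614).

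**Figure D3:**
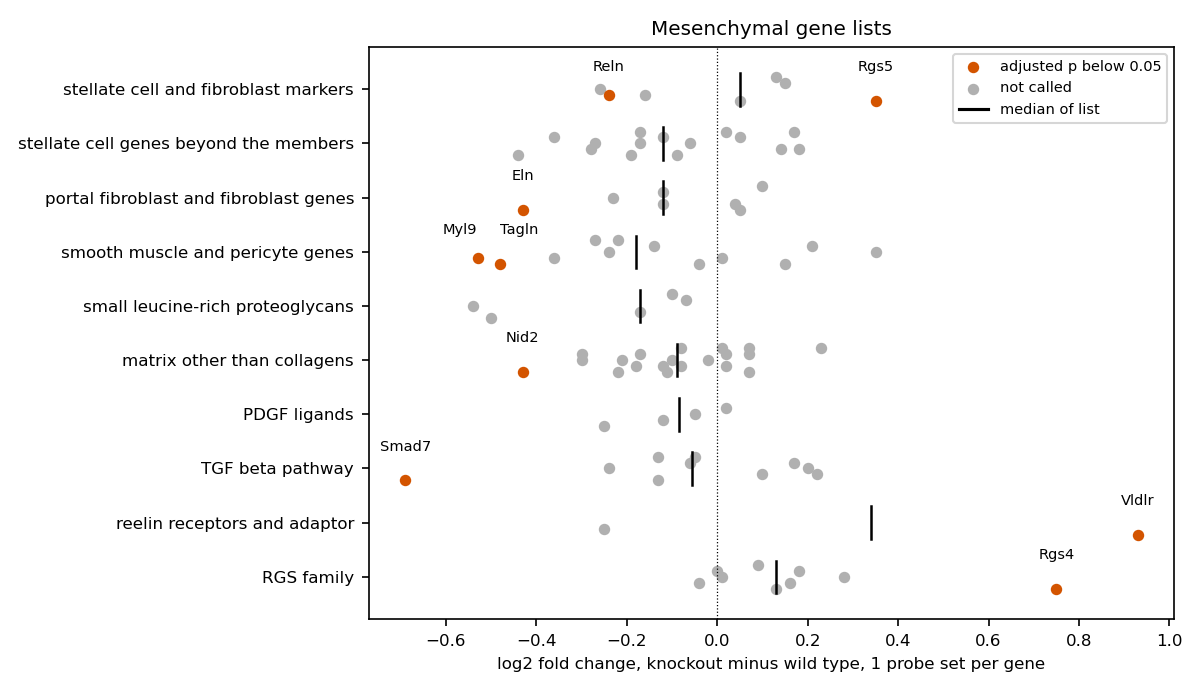
Log2 fold change, knockout minus wild type (horizontal axis), of each tested gene of 10 mesenchymal lists, 1 probe set per gene; orange points passed an adjusted p of 0.05 and are named, grey points did not, and black lines are list medians. Acta2 is shown here by its dim probe set (-0.16), Myl9 and Tagln fell, and the named RGS and reelin receptor genes rose.

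Markers of other liver cells were read on the same arrays. Of 12 sinusoidal endothelial markers 3 fell (Fcgr2b, Cdh5 and Clec4g) and 0 rose, against 3.79% of all tested genes lower, and their summed linear signal was 6525 to 6777 in knockout pools, against 7332 to 7511 in wild-type pools. Without knockout pool 1, Fcgr2b stood (adjusted p = 0.0349), while Cdh5 (0.0626) and Clec4g (0.111) did not. Cdh5 and Clec4g kept their calls in 1 of 6 fits without a pool and 3 of 7 other settings, and Fcgr2b in 3 and 5. The brightest one not called was Kdr, a receptor for vascular endothelial growth factor, at -0.07 (adjusted p = 0.696). Of 13 tested proliferation genes 12 fell, Mcm6, Cdk1, Birc5 and Top2a among them, with summed signals of 2112 to 2438 in knockout pools, against 4373 to 4579 in wild-type pools, and Tyms, not called, gave 0.18 (adjusted p = 0.714). Of 3 tested cholangiocyte markers 1 fell, Prom1 (-0.96, adjusted p = 0.00142), with Sox9 at -0.08 (adjusted p = 0.799) and Krt19 at 0.12 (adjusted p = 0.811). The sums were 354.6 to 474.2 in knockout pools, against 605.7 to 795.3 in wild-type pools. They are dominated by Prom1, the brightest of the 3, and so mainly repeat its fall. The sums of 8 hepatocyte markers, with Apoa1 at -0.01 (adjusted p = 0.946), overlapped, at 106100 to 110500 in knockout pools and 108000 to 110000 in wild-type pools, as did those of 12 Kupffer cell markers, at 10290 to 10450 in knockout pools and 9858 to 11260 in wild-type pools. Marco, a scavenger receptor of macrophages, was nevertheless the 1 Kupffer cell marker that fell (-0.44, adjusted p = 0.0215), and Cd5l gave 0.02 (adjusted p = 0.930). The share of 3.79% of all tested genes lower also stands beside the counts of proliferation genes, cholangiocyte markers and Kupffer cell markers. The sums of 2 lymphocyte markers were 67.56 to 79.37 in knockout pools, against 82.32 to 110.7 in wild-type pools, and neither was called, with Ms4a1 at -0.35 (adjusted p = 0.238). Of the adipocyte markers 1 was tested, Fabp4, which rose by 0.38 (adjusted p = 0.0142). Without knockout pool 1 Marco, Prom1, Fabp4 and the 4 named proliferation genes stayed called. The calls of Marco and Fabp4 were lost without knockout pool 2, wild-type pool 2 or wild-type pool 3. Without the intensity trend Marco, Fabp4 and Prom1 did not pass, and with median centring Marco did not. The summed signal of the 7 tested marker genes themselves overlapped too, at 6638 to 6778 in knockout pools and 6504 to 6840 in wild-type pools. Dcn makes up the largest part of this sum, and Acta2 entered it by its dim probe set. Falls and rises also offset each other in it, so the overlap does not bear on single markers. Of 11 striated muscle markers, which share Des and in part Acta2 with mesenchymal cells, 1 was tested, Tnnt2 at 0.39 (adjusted p = 0.637). The part of these other cells in the fall of Acta2 and Reln and the rise of Rgs5 was not tested.

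Rgs5 lies on chromosome 1, as does Dbi. Its neighbour Rgs4, which encodes a related regulator of G protein signalling, also rose, a match noted after the values were seen. In the RefSeq order of GRCm38.p6, Rgs5 and Rgs4 are the tested genes 177 and 178 places from Dbi, next to each other. Rgs4 read 6.13, 6.19 and 6.54 in knockout pools, against 5.22, 5.56 and 5.85 in wild-type pools, and rose by 0.75 (SE 0.17, adjusted p = 0.0118). The knockout pools were all above the wild-type pools, though the call was lost without wild-type pool 1 (adjusted p = 0.0825) or without the intensity trend (0.109), and stood without knockout pool 1 (0.82, adjusted p = 0.0100). Of 19 listed genes of the RGS family other than Rgs5, 9 were tested and Rgs4 alone was called, against 3.30% of all tested genes called higher. Rgs16, not called, gave 0.13 (adjusted p = 0.845). Within 10 tested genes on either side of Rgs5, 2 were higher and 4 lower. On the whole chromosome, 4.25% of 635 tested genes were higher and 5.04% lower. The part of chromosomal position was not tested.

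**Figure D4:**
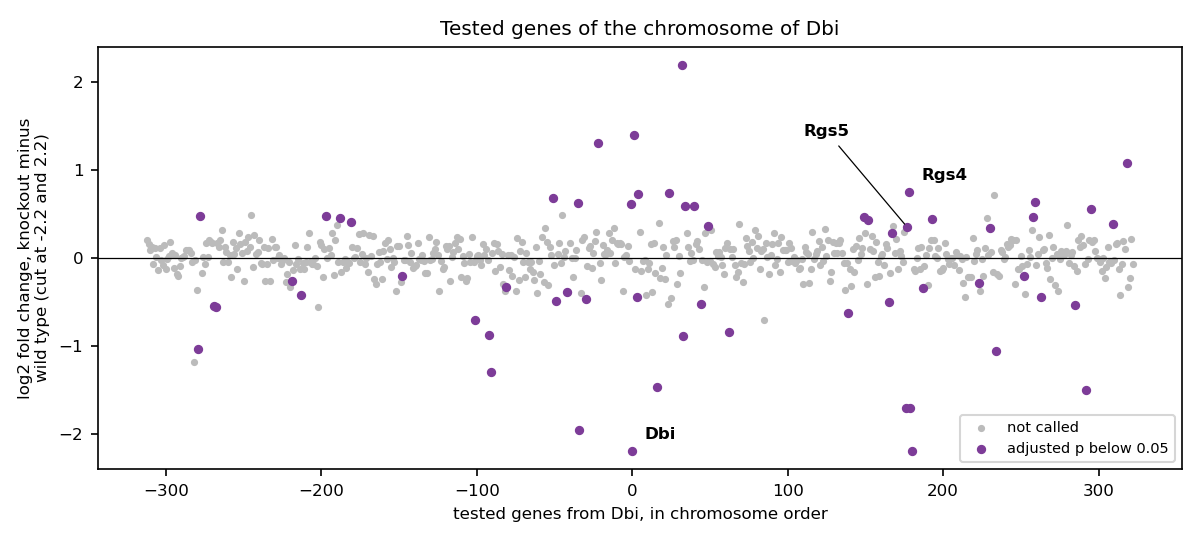
Log2 fold change, knockout minus wild type (vertical axis, values beyond ±2.2 drawn at the edge), of the 635 tested genes of chromosome 1 in chromosome order, counted from Dbi (horizontal axis). Purple points passed an adjusted p of 0.05; Rgs5 (0.35) and Rgs4 (0.75) stand side by side, between genes that were lower.

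The genes whose signals ran most like those of 3 markers over the 6 pools were named as a description. They were Ikbke (r = 0.997, rho = 0.94), Apex1 (r = 0.996, rho = 0.94) and Cdca5 (r = 0.994, rho = 0.94) for Acta2. Treml4 (r = 0.986), Shld1 (r = 0.978) and Mycbp (r = 0.977) were nearest to Dcn, each with a rho of 0.94. Cdk13 (r = 0.997, rho = 0.83), Gtf3c2 (r = 0.996, rho = 0.94) and Neu1 (r = 0.996, rho = 1.0) were nearest to Pdgfrb. The pools fall into 2 genotypes and the values share arrays. Among the 9535 genes compared, 241 had an r of at least 0.95 with Acta2 and 205 with Pdgfrb, against 15 with Dcn.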

How the data were processed

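Pooled liver RNA was hybridised to Affymetrix arrays. In the deposited workbook each array has a log2 signal, a detection call and a detection p-value for each probe set, and the authors' own comparison gives p-values and an absolute fold (ratio). Per the submitters' processing notes, MAS5 made the log2 signals; settings and version are not stated in the sources used. The deposited series matrix repeats them (largest difference 4.91e-07) and served only that check.

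The 8 markers, the gene lists and the tests were chosen with earlier results of these data known. Deposited log2 values were used unchanged. After removal of 64 control probe sets, those Present on at least 3 of 6 arrays were tested, 22482 in all, 13 of them of the markers. Gene names are those of the platform annotation, and the 932 probe sets with several symbols and 9211 without one stay unnamed. Genotypes were compared with limma 3.58.1 (R 4.3.3; lmFit, eBayes, trend = TRUE), and p-values were adjusted by Benjamini-Hochberg over all 22482. The brightest tested probe set stood for a gene, with _x_at and _s_at ones last. Named were all markers and, from the lists described, up to 4 called members with the smallest p and the brightest one not called; genes named otherwise are said to be so. The fit was tested on simulated data. The labels do not pair pools of the same number, and deviations of same-numbered pools correlated at -0.03, -0.01 and -0.08, so no block was used. Intervals are at the 95% level, and the number of arrays limits their precision. Alternatives were a pseudocount of 16, other detection filters, quantile normalization, centring on medians, no trend, the pool number as a block, averaging of probe sets per gene and each pool left out.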

Additional observations from a re-analysis of the deposited data

How the results depend on the processing

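Counts of called marker probe sets (4) and of marker genes lower (1) or higher (1) rest on few genes near the threshold. With median centring 2 probe sets were called and without the intensity trend 1, where 0 genes were higher. Leaving out single pools gave 1 to 4 called probe sets, 0 to 1 genes lower and 0 to 1 genes higher, the lowest when either wild-type pool 1 or pool 2 was left out. The number of genes lower was 0 without a filter, with median centring, without the trend and with the pool number as a replicate block. It was 2 with Present calls on all 6 arrays, with quantile normalization and with _s_at probe sets ranked like the others. The block changed the call of Reln alone among the marker probe sets (adjusted p = 0.0546). The median log2 fold change of marker genes, 0.05, was 0.00 without a filter, 0.01 with quantile normalization, 0.11 with median centring and -0.03 when probe sets were averaged per gene, and 0.01 to 0.08 with single pools left out. Dcn reversed to -0.03 under that averaging, and its dim probe set ranged over -0.22 to 0.06 with single pools left out, reversing without knockout pool 3. Over all probe sets, 1277 were called (602 higher, 675 lower), 1361 with median centring (881 higher, 480 lower), 378 without the trend, 639 when wild-type pool 1 was left out and 3010 when knockout pool 3 was. Without the trend, the probe set 1420941_at of Rgs5 was the one marker call that stood (adjusted p = 0.0219). The cause of these moves was not tested. Dim probe sets, such as those of Des, gave no usable level.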

Other observations

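Kcnj8 and Abcc9, which encode the subunits of the ATP-sensitive potassium channel of pericytes, were chosen after their values were seen. Kcnj8 had a log2 fold change of 0.35 (SE 0.11, adjusted p = 0.0926) and Abcc9 one of 0.21 (SE 0.11, adjusted p = 0.324), so neither passed. Every knockout pool was above every wild-type pool for both, as in 12.9% of all tested genes. In the same list of smooth muscle and pericyte genes Mcam gave -0.24, Angpt1 -0.22 and Notch3 -0.04, all with overlapping groups.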
